A study of Mus musculus with 12 samples.

Results

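Histone H3 acetylated at lysine 27 (H3K27ac) was described in normal mouse cortex at embryonic stage E15.5, from the 3 wild-type (WT) H3K27ac libraries of a series of 12 samples. These 3 libraries gave 3 of the 6 peak lists of the series. The WT embryos carried Prdm16 flox/flox without a Cre driver, so both copies of Prdm16, a zinc-finger chromatin regulator gene of neural progenitors, were floxed and not recombined. A lysate of the whole cortex was used: micrococcal nuclease released native chromatin, and the anti-H3K27ac antibody ab4729 (abcam) precipitated it. Bases lying under a peak in all 3 WT lists, called shared bases below, were kept. They were summed over each of 21887 protein-coding genes and 20 kb on each side, the gene's locus, which gives its shared covered length. The labels number the replicates but do not say whether they were separate embryos or litters, so the spread between lists may be technical. The tissue is a mixture of cell types, and a mark present in fewer cells cannot be told apart from a weaker mark in each cell.

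H3K27ac is placed by the acetyltransferases encoded by Ep300 and Crebbp and removed by histone deacetylases. It marks promoters and enhancers that are in use and is absent where the same lysine carries the methyl groups of Polycomb repression. Long domains of it are known to lie over transcription factor genes that define a cell's identity. At this age the cortex holds radial glia that line the ventricle, intermediate progenitors and the excitatory neurons they produce, with inhibitory neurons arriving from the ventral forebrain.

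The sequences below show the range at gene starts. Each is the 250 bases before an annotated start on the gene's own strand (RefSeq, GRCm38.p6, the assembly behind mm10), with every CG dinucleotide in capitals. The first 3 belong to transcription factor genes of the developing cortex and lie wholly in shared bases. They are Pou3f3 (chr1:42695518-42695767, plus strand, 15 CG), Nr2f1 (chr13:78198874-78199123, minus strand, the most upstream of 2 starts, 22 CG) and Sox2 (chr3:34649745-34649994, plus strand, 27 CG). The last pair had no base under a peak in any list. They are Hoxd9, a body-axis homeobox gene (chr2:74697513-74697762, plus strand, 13 CG), and Alb, the serum albumin gene of liver (chr5:90460620-90460869, plus strand, 2 CG).
Pou3f3: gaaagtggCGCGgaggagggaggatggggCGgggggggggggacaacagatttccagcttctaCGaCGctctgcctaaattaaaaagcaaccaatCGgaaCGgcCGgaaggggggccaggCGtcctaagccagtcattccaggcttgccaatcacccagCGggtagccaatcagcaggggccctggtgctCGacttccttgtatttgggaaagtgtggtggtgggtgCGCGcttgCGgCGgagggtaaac
Nr2f1: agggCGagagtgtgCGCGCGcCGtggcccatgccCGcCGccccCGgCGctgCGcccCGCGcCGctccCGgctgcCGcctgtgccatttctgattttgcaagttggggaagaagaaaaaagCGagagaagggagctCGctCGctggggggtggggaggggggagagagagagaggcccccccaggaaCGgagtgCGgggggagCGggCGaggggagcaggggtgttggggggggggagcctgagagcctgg
Sox2: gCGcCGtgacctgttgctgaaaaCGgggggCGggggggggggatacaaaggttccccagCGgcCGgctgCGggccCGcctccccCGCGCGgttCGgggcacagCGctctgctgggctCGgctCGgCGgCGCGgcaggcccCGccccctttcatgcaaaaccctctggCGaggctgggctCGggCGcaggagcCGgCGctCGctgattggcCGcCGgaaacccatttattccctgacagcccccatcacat
Hoxd9: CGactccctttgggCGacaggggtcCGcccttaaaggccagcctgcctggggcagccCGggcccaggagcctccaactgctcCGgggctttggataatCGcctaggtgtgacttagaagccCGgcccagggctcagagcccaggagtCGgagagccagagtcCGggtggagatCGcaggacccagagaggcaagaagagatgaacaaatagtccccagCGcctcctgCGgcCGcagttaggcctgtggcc
Alb: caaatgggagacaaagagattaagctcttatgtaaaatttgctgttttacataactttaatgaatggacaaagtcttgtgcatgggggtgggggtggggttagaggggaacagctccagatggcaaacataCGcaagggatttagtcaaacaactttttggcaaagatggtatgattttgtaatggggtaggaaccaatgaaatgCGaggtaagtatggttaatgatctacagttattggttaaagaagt

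Pou3f3 and Hoxd9 had nearly as many CG dinucleotides as each other and stood at opposite ends of the data. The map of called peaks around these starts shows what the lists held there.

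**Figure D1:**
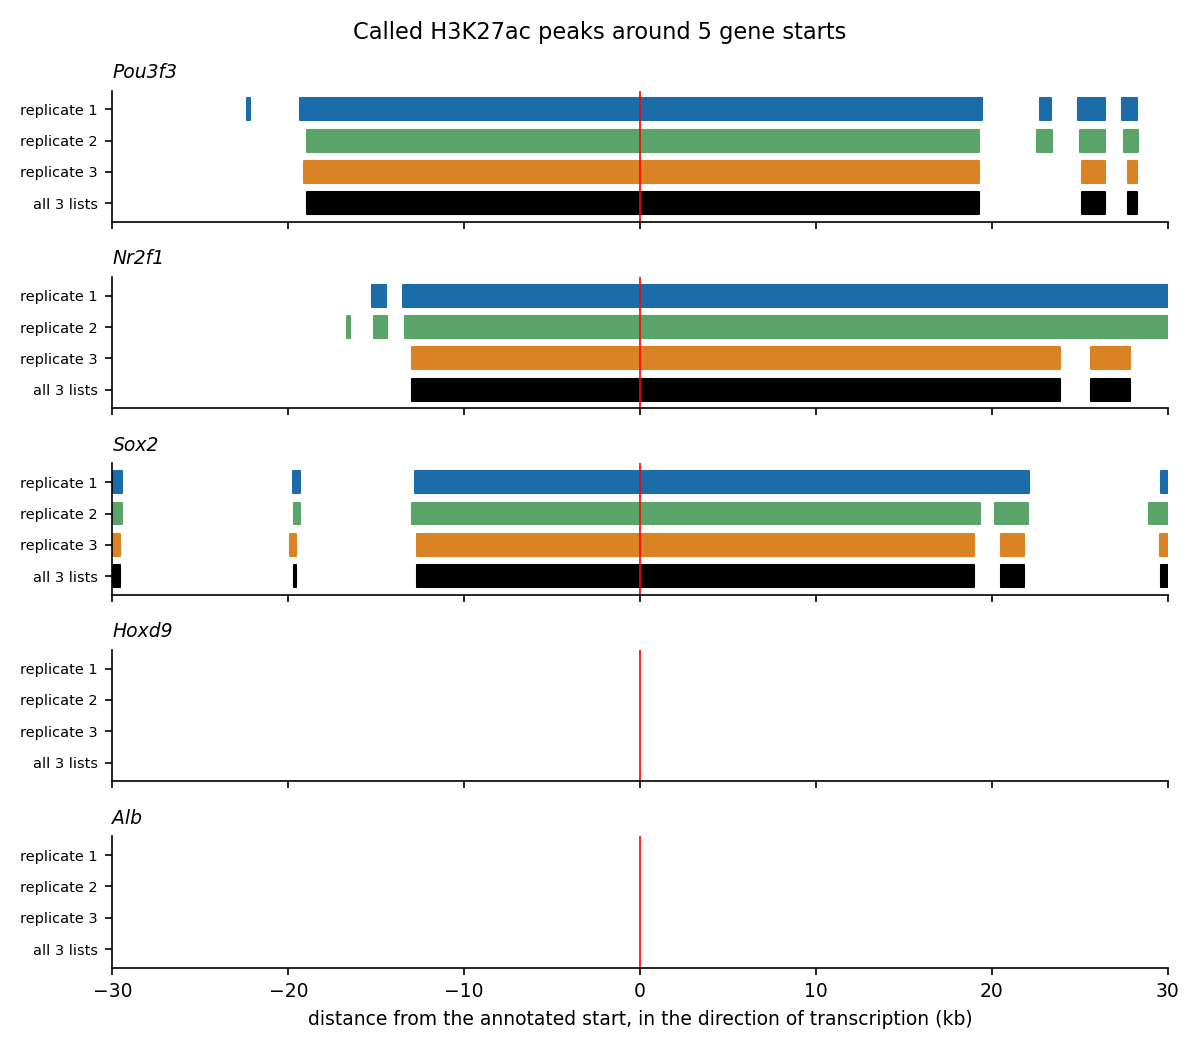
Peaks called in each WT list (coloured bars) and bases in all 3 lists (black bars) within 30 kb of the annotated start of 5 genes; the horizontal axis is distance from the start in kb along the direction of transcription. Pou3f3, Nr2f1 and Sox2 lay in wide blocks that ran across the start in every list, while Hoxd9 and Alb had no peak in the mapped span.

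The lists differed in length. Replicates 1, 2 and 3 held 66493, 75563 and 48168 peaks over 83.2, 92.1 and 53.9 Mb. Replicates 1 and 2 carry one library identifier in the file names and replicate 3 another. Shared bases came to 51.1 Mb, which was 49.4% of the 103.5 Mb under a peak in any list. They made up 61.4% and 55.5% of the bases of replicates 1 and 2 and 94.9% of those of replicate 3, so the shortest list lay almost wholly inside the others. Bases held by replicates 1 and 2 and not by replicate 3 came to a further 21.3 Mb. Replicate 2 alone held 18.1 Mb, replicate 1 alone 10.3 Mb and replicate 3 alone 0.604 Mb. The Jaccard index, the bases common to a pair of lists over the bases in either, was 0.703 for replicates 1 and 2, 0.605 for 1 and 3, and 0.565 for 2 and 3. Peak lists hold no read counts, so the depth of each library is unknown, and the part of depth in these lengths was not tested.

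**Figure D2:**
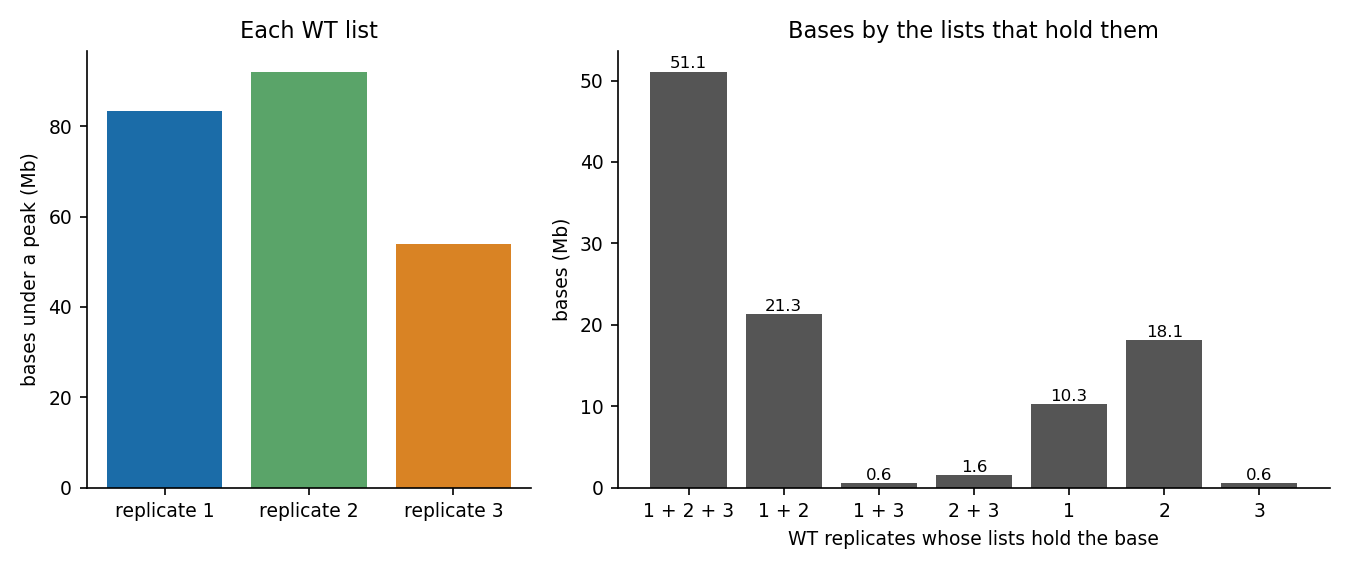
Left, bases under a peak (Mb) in each WT list; right, the same bases split by which replicates' lists hold them. The 51.1 Mb in all 3 lists is the largest class, and the bases of replicate 3 alone are among the smallest at 0.604 Mb.

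Peaks found in a single list were narrow and weak by the authors' peak caller's own values. In replicate 2, 14476 peaks overlapped no other list, with a median width of 349 bp and a median fold enrichment of 3.10. The 44645 peaks of that list with a shared base had medians of 1335 bp and 5.76. Replicate 1 showed the same contrast, with 333 bp and a fold of 3.21 for 5974 private peaks against 1259 bp and 5.68. Replicate 3 had 308 private peaks of 229 bp against 864.5 bp for those with a shared base. Private bases also lay less often near gene starts: 29.8% of shared bases lay within 2 kb of an annotated start, against 12.3% of bases in exactly 2 lists and 8.79% of bases in exactly 1 list. By contrast, the share inside protein-coding gene bodies was nearly even, at 62.9%, 61.5% and 61.4%.

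Shared bases formed 46515 separate stretches with a median width of 814 bp and quartiles of 423 and 1399 bp. Stretches that reached within 2 kb of a start (10249 of them) had a median of 1360 bp, against 681.5 bp for the others. A small number were far wider: 515 stretches of at least 5000 bp held 8.49% of all shared bases, and 88 of at least 10000 bp held 3.14%.

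The widest stretch ran for 92484 bp on chromosome 8 (84698803 to 84791286, mm10) across most of Nfix, which encodes a nuclear factor I transcription factor of neural progenitors, and its neighbours Lyl1 and Trmt1. The next 3 held the 3 hairpins of one microRNA. A stretch of 55434 bp on chromosome 7 (79495733 to 79551166) held Mir9-3 and lay 27822 bp from the nearest protein-coding gene, Polg. Another of 46972 bp on chromosome 3 (88197201 to 88244172) held Mir9-1 and reached the ammonium transporter gene Rhbg. The fourth, of 38572 bp on chromosome 13 (83712669 to 83751240), held Mir9-2 and lay 45590 bp from Mef2c, a neuronal transcription factor gene. A rule based on protein-coding genes alone gives no credit to the blocks at Mir9-3 and Mir9-2.

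Blocks over single transcription factor genes followed. They were 38208 bp at Pou3f3, a POU-domain gene of upper-layer neurons, 36849 bp at Nr2f1, a nuclear receptor gene of cortical area patterning, and 36543 bp at Nfib, another nuclear factor I gene. Lhx2, a LIM-homeobox gene of cortical identity, had 34213 bp, and Sox2, the SRY-box gene of neural stem cells, 31666 bp. Also among the 15 widest were a pair of 30831 and 30478 bp at Tcf4, blocks at Bcl11a (28161 bp) and Meis2 (24689 bp), and an intergenic block of 24458 bp on chromosome 15, 46986 bp from Ppara. Apart from the Mir9 blocks and the one nearest to Ppara, all 15 overlapped a transcription factor gene.

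Mature miR-9, a microRNA of neural progenitors and young neurons, is shown with its seed (bases 2 to 8) in capitals because its 3 hairpins carry these blocks. Mature miR-128 and miR-137, also neural, are shown beside it. The 3 seeds differ.
mmu-miR-9-5p: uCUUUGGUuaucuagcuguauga
mmu-miR-128-3p: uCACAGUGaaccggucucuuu
mmu-miR-137-3p: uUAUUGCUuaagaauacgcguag

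Within 20 kb of its hairpin Mir9-1 had 39111, 40084 and 38486 bp under peaks in replicates 1, 2 and 3. Mir9-2 had 33344, 33271 and 32427 bp, and Mir9-3 had 30504, 30637 and 29621 bp. The lists differed little at these hairpins. Their choice from the widest shared stretches largely fixes this, and the lists nearly filled the window at Mir9-1. Of 1005 hairpins, 69.3% had a shared base within 20 kb, with a median of 1205 bp. Among 10 hairpins of neural microRNAs, 7 had one, with a median of 4260 bp. Mir137 had 5698 shared bp, the Mir132 and Mir212 pair 4260 bp each in windows that overlap, and Mir128-2, which lies inside Arpp21, 3321 bp. Mir128-1, inside R3hdm1, and Mir138-1 had no base in any list, and Mir138-2 had no shared base. The neural hairpins thus ran from the longest of all hairpins to 0. Among 21 hairpins known from other tissues, 10 had a shared base and the median was 0 bp. The muscle hairpins Mir206 and Mir133b and the Hox-cluster hairpins Mir10a and Mir10b were at 0 in all lists.

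Over protein-coding genes, 16371 loci (74.8%) had at least 1 shared base. Another 915 had bases in some list and none shared, and 4601 (21.0%) had no base in any list. The median locus had 2030 shared bp, or 2.61% of its length, with quartiles of 0 and 3986 bp. A locus needed 6719 bp to stand in the top decile, and the loci there held 41.1% of the summed length. Neighbouring genes share bases where their loci overlap. Across genes the ranking was close in every pair of lists, with Spearman correlations of covered length of 0.987, 0.976 and 0.969 for replicates 1 and 2, 1 and 3, and 2 and 3 (21887 genes that are not independent and share the same windows and lists).

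The longest shared covered lengths belonged mainly to large transcription factor genes. Nfia, the nuclear factor I gene of gliogenesis and neurogenesis (chromosome 4, 97578066 to 98118876), had 206348, 217429 and 150169 bp in replicates 1, 2 and 3, a mean of 191315 ± 36062 bp (SD, n = 3), and 145414 bp shared. Tcf4, which encodes a basic helix-loop-helix partner of the proneural factors (chromosome 18), had 195650, 201971 and 144225 bp, with 142506 bp shared. Both reached about the same length in replicates 1 and 2 and less in replicate 3. Nfix (chromosome 8, 84704712 to 84801238) had 116843, 117300 and 110930 bp, with 110821 bp shared, and the lists differed far less there. Tenm4, which encodes a teneurin adhesion protein, had 200365, 230492 and 98445 bp, with 93124 bp shared. Nfib (chromosome 4, 82290173 to 82506751) had 146103, 147047 and 91232 bp, with 88088 bp shared. With Nfia, Nfix and Nfib, 3 of the first 5 places were nuclear factor I genes.

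Further down the first 20 came Gse1 (78420 shared bp), the TALE homeobox gene Meis2 (75565 bp), the neurodevelopmental gene Auts2 (71896 bp), the SRY-box gene Sox5 (70533 bp), and Bach2 (70522 bp), a leucine-zipper factor gene. Ttc28 had 66656 bp. Genes of the RNA-binding proteins Celf2 (61613 bp) and Msi2 (56491 bp) were among them. Prdm16 itself, the gene that is floxed in these embryos (chromosome 4, 154316122 to 154637360), stood at place 14, with 92637, 96576 and 59878 bp in the 3 lists, a mean of 83030 ± 20147 bp (SD, n = 3), and 58052 bp shared, 16.1% of its locus. Mpped2 (54069 bp), Zmiz1 (52926 bp), Cdkal1 (51595 bp), Foxn3 (51181 bp) and Frmd4a (50543 bp) closed the first 20. Replicate 3 set these lengths: without it, bases in both other lists came to 174660 bp at Tenm4, 118548 bp at Gse1, 113585 bp at Auts2, 106132 bp at Ttc28, 98994 bp at Celf2, 92536 bp at Msi2 and 86583 bp at Zmiz1, each over 1.5 times the shared length. Of these 20 loci, the one of Nfix overlapped the loci of 6 other genes and no other overlapped more than 3.

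**Figure D3:**
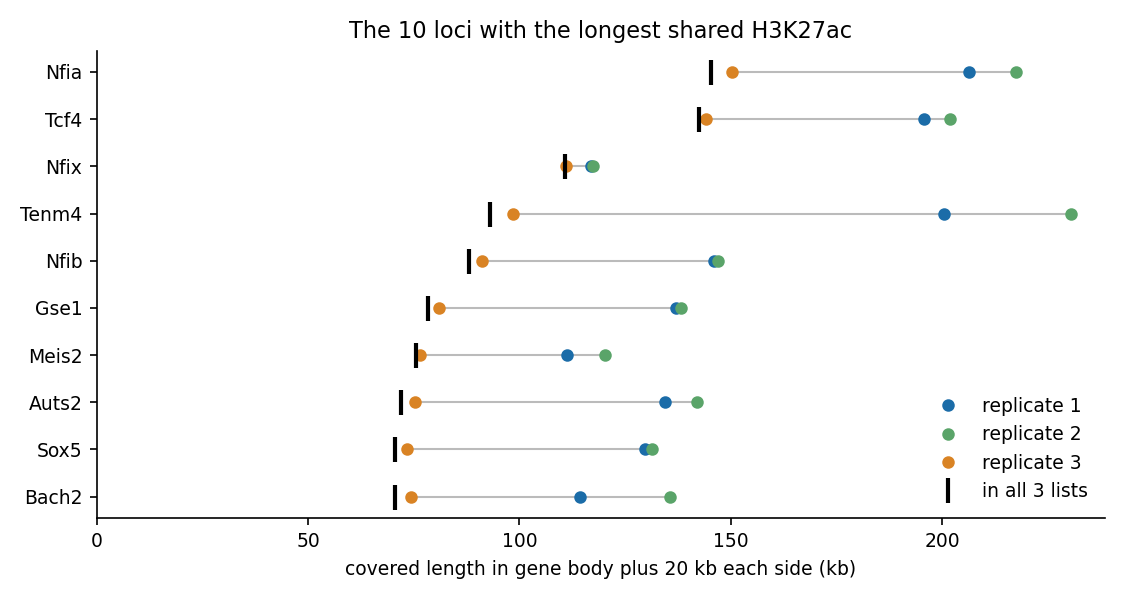
Covered length (kb) over the gene and 20 kb on each side for the 10 loci with the longest shared length; points are the 3 WT replicates and the black tick the bases in all 3 lists. Replicate 3 lies close to the tick at every locus and replicates 1 and 2 lie to its right, least so at Nfix.

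Long genes have long loci, and shared length rose with locus length across genes (Spearman 0.392 over 21887 genes, as a description). Ranked instead by the share of the locus covered, small developmental transcription factor genes led. Pou3f3 (chromosome 1, 42695768 to 42700210) was covered over 86.0% of its locus, with 39362, 39051 and 38381 bp in the 3 lists. Nfix followed with 81.2%, the only gene that stood in both rankings. Nr2f1 had 44198, 44121 and 39064 bp (78.3%) and Sox2 had 35254, 34507 and 33346 bp (77.9%). The 3 lists nearly coincided at Pou3f3 and Sox2, and replicate 3 was shorter at Nr2f1. Skida1 (74.4%) and Lyl1 (65.8%), which lies within the block of Nfix, were also high. The homeobox genes of inhibitory neurons, Dlx6 (65.1%), Dlx5 (52.1%) and Dlx1 (51.6%), and Lhx2 (51.1%) were in the first 15. Another 4 places went to replication-dependent histone genes of one cluster on chromosome 13, led by H2ac8 (59.4%), with H2bc8, H3c6 and H2bc7, whose loci overlap each other.

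Agreement between the lists differed with locus length. Over all 17286 loci with any base, shared bases made up a median of 57.7% of the bases in any list. In the 20 loci with the longest shared length the median was 48.0% (36.1% at Tenm4 to 93.3% at Nfix). In the 15 loci with the highest share it was 89.5%, a value that their selection for shared bases largely fixes. By locus length over all genes, the median was 62.4% under 50 kb and 42.4% over 250 kb.

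Cortical genes were then set beside all genes by role. The cortical patterning list, transcription factors and receptors that set the identity and areas of the cortex, had a median of 31808.5 shared bp, and 16 of its 18 members stood in the top decile, which by definition holds 10% of all genes. Nfia, Nfix, Nfib and Meis2 led it. Zbtb20 had 49930 bp, Bcl11a 37688 bp, Emx2 20125 bp and Emx1 13766 bp, the latter pair being homeobox genes of the dorsal telencephalon. Its shortest members were Nr2f2 (13060, 15314 and 6858 bp, 6531 bp shared) and Dmrta1 (2884, 3313 and 1789 bp, 1738 bp shared).

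Markers of radial glia, the progenitors at the ventricle, had a median of 7384 bp, with 11 of 18 in the top decile. Sox2 had 33091 shared bp, Pax6, a paired-box gene of dorsal progenitors, 29007 bp, and the receptor gene Notch1 39418, 38723 and 26973 bp with 26973 bp shared. Sox1 had 17425 bp, the intermediate filament gene Nes 12011 bp, and the Notch target Hes5 9302 bp. Tnc (2047 bp), an extracellular matrix gene, and the endothelin receptor gene Ednrb (1592 bp) were the shortest. For intermediate progenitors the median was 7601.5 bp, with 7 of 12 in the top decile. The cell-cycle regulator Btg2 had 27633, 28007 and 19525 bp (19386 bp shared), the proneural gene Neurog2 16638 bp, the zinc-finger gene Insm1 13932 bp and the T-box gene Eomes 8860 bp. Neurod4 had 2448, 3607 and 653 bp, so replicate 3 held the least of the 3.

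The neuronal lists had longer medians than the progenitor lists, also over the gene body alone and with 100 kb on each side. That order was reversed by share of the locus and within 2 kb of the gene ends. By share of the locus the medians were 16.3% for radial glia and 15.3% for intermediate progenitors, against 11.3% for upper-layer, 7.10% for deep-layer and 6.23% for pan-neuronal genes. Within 2 kb of the gene ends they were 3558 and 4157.5 bp against 2418.5, 2692 and 2238 bp. Over the whole locus, upper-layer markers had a median of 11179.5 bp, with 11 of 14 in the top decile. Pou3f3, already described, led them. Pou3f2, the POU-domain relative of Pou3f3, had 22170, 22018 and 21942 bp, and all of the replicate 3 bases were shared. Mef2c had 21717 shared bp, Cux2 17312 bp and Cux1 9954 bp. Rorb (3009 bp), a layer 4 nuclear receptor gene, and Inhba (1799 bp) were the shortest.

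Deep-layer markers had a median of 10220 bp (15510 bp without replicate 3), with 13 of 15 in the top decile. Sox5 led with 129791, 131438 and 73330 bp (70533 bp shared), followed by Bcl11b, a gene of subcerebral projection neurons (29730 bp), Tbr1, of corticothalamic neurons (20048 bp), and Zfpm2 (17114 bp). Fezf2 had 12778 bp. Pcp4 (1825 bp) and Crym (1293 bp) were the shortest. In the pan-neuronal list the median was 11512 bp, with 11 of 17 in the top decile. The guidance gene Nav1 had 30023 shared bp, the splicing factor gene Rbfox3 22323 bp, and the adhesion gene Ncam1 22042 bp. Tubb3, a neuronal tubulin gene with a short body, had 5810, 5463 and 4998 bp, and Stmn2 had 2742 shared bp.

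Inhibitory neuron and ventral forebrain genes divided. The Dlx genes Dlx6, Dlx1, Dlx5 and Dlx2 had 29078, 23678, 23063 and 19601 shared bp, in 2 pairs of neighbours whose loci overlap. The GABA-synthesis genes Gad1 and Gad2 had 10499 and 9794 bp, and the homeobox gene Lhx6, of neurons from the medial ganglionic eminence, 9471 bp. By contrast, 4 genes that mark progenitors of the ventral zones themselves or their cholinergic progeny had no shared base: Gsx1, Gsx2, Lhx8 (1259, 1724 and 391 bp) and Nkx2-1, which was at 0 in every list. The LIM-homeobox gene Isl1 of the striatum had 147 bp. Over the list 17 of 21 members had a shared base, near the 74.8% of all genes, and 11 stood in the top decile, with a median of 6915 bp. Among peaks with -log10 q of at least 5, 14 members had a shared base and the median was 2056 bp.

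Lists of minor and later cell types of the cortex had shorter medians than the neuronal lists. Cajal-Retzius and cortical hem genes had a median of 913 bp (1663 bp without replicate 3). Reln, the secreted signal of Cajal-Retzius cells (11060, 13659 and 8390 bp, 7944 bp shared), was the 1 member in the top decile, and Lhx5 had no shared base. Oligodendrocyte lineage genes had a median of 744.5 bp (1743.5 bp without replicate 3) and none in the top decile. Olig2 had 472 bp, and Olig1 and Nkx2-2 were at 0 in every list. Astrocyte genes had a median of 3061.5 bp (4607 bp without replicate 3), led by Sox9 (9410 bp), a gene also on the radial glia list, and then Aldoc (5180 bp).

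Markers of cells outside the neural lineage were set beside all genes to check the tissue label. The median was 885.5 bp for vascular genes, 475 bp for microglia, 1278 bp for erythroid cells, 1104 bp for striated muscle, 1751.5 bp for lymphocytes and 1584 bp for germ and pluripotent cells. It was 0 bp for meningeal, hepatocyte and keratinocyte genes. All lay below the 2030 bp of all genes. By share of the locus, lymphocyte (3.09%) and germ cell genes (3.36%) had medians above the 2.61% of all genes. The count of members with any shared base was 8 of 9 for erythroid, 13 of 16 for muscle and 9 of 12 for germ cell genes. None of these was lower than the 74.8% of all genes. The rest were lower: vascular and lymphocyte genes had 10 of 14 each and microglial genes 8 of 13. Hepatocyte genes had 6 of 13, meningeal genes 5 of 12 and keratinocyte genes 4 of 10. Without replicate 3 the medians were 2111 bp for vascular, 1061 bp for microglial, 1803.5 bp for muscle, 2898.5 bp for lymphocyte, 752 bp for meningeal, 183 bp for hepatocyte and 84.5 bp for keratinocyte genes. The median of all genes was then 2643 bp, below that of the lymphocyte list. With peaks of -log10 q of at least 5, the vascular median was 252 bp and the microglial median 0 bp. Length over a locus thus separated these lists from all genes only in part. Of these 9 lists, muscle and lymphocyte genes each had 1 member in the top decile, and the others had 0. At 0 in every list were the endothelial receptor genes Tek and Tie1, the mesenchymal gene Twist1, the liver genes Alb and Serpina1a, the cardiac gene Nkx2-5 and the B-cell gene Ms4a1.

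**Figure D4:**
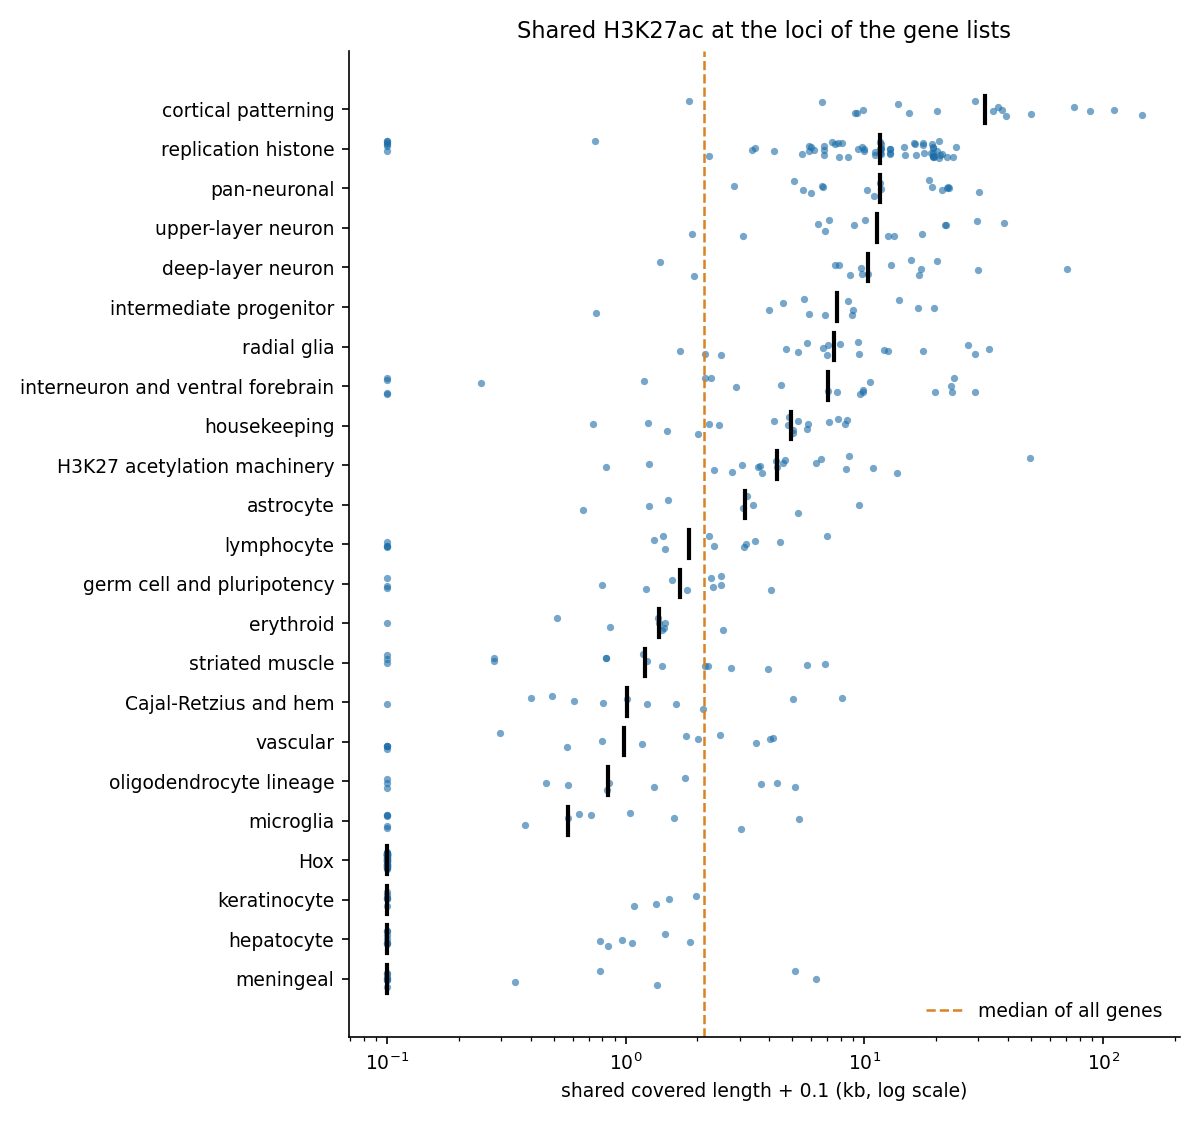
Shared covered length plus 0.1 kb on a log axis for every member of 23 gene lists, ordered by the list's median (black tick); the dashed line is the median of all genes, and members with no shared base sit at 0.1 kb. The median of the cortical patterning genes lies farthest right, the medians of the lists of other tissues lie left of the dashed line, and every Hox gene is at 0.1 kb.

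Where a marker of another tissue did have shared bases, they lay outside its own body in some lists and inside it in others. Cd4, a T-cell co-receptor gene, had 9484, 9470 and 7293 bp (6900 bp shared), with 0 bp in its body and 3 other genes reaching into its locus. The microglial gene Aif1 had 5218 shared bp and the myelin gene Mog 5001 bp, again with 0 bp in the body. Crabp2, a meningeal retinoid-binding gene, had 6160 shared bp, all in a locus that takes in Nes. By contrast, the muscle calcium channel gene Ryr1 had 6308 of its 6757 bp in its body, the endothelial adhesion gene Pecam1 all of its 4057 bp, and the keratin gene Krt10 all of its 1870 bp. Over all genes, 64.0% had a shared base within the body, against 1 of 13 hepatocyte, 2 of 9 erythroid, 3 of 12 meningeal, 3 of 12 germ cell, 4 of 14 lymphocyte, 4 of 13 microglial and 5 of 16 muscle genes. The counts were higher for keratinocyte (4 of 10) and vascular genes (8 of 14). They were 18 of 18 for radial glia and 17 of 17 for pan-neuronal genes.

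Gene starts were then examined list by list. Of 17492 genes with a promoter window, 250 bases before to 50 after an annotated start, 47.2% had a window wholly in shared bases. The count was 13 of 16 cortical patterning genes, 14 of 15 radial glia genes, 9 of 10 intermediate progenitor genes, 9 of 9 upper-layer genes, 8 of 11 deep-layer genes and 10 of 11 pan-neuronal genes. Housekeeping genes had 12 of 14. Genes acting on or reading H3K27 acetylation or methylation, such as Ep300, Crebbp and the demethylase gene Kdm6a, had 13 of 14. For inhibitory neuron genes it was 6 of 15, among them Gad1, Gad2 and Lhx6. The count was 0 of 11 for vascular, 0 of 9 for microglial, 0 of 7 for meningeal, 0 of 7 for erythroid, 0 of 11 for hepatocyte, 0 of 13 for muscle, 0 of 10 for lymphocyte, 0 of 11 for germ cell and 0 of 6 for keratinocyte genes. Oligodendrocyte genes had 0 of 7, astrocyte genes 1 of 6 (Aldoc) and Cajal-Retzius genes 1 of 8 (Reln). Windows only partly in shared bases do not count here. Starts without a base in any list were found for 39.3% of all genes, 5 of 11 vascular and 5 of 7 oligodendrocyte genes. They were found for 8 of 9 microglial, 6 of 7 meningeal, 11 of 13 muscle and 9 of 10 lymphocyte genes. Every erythroid, hepatocyte, germ cell and keratinocyte gene was among them, but 3 of 6 astrocyte and 2 of 8 Cajal-Retzius genes.

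All 18 housekeeping genes had a shared base, against 74.8% of all genes, with a median of 4827 bp and 4 in the top decile. By share of the locus their median was 8.86%, above those of the deep-layer and pan-neuronal lists (7.10% and 6.23%). The actin gene Actb had 10118, 11445 and 6993 bp, and the lysosomal enzyme gene Gusb had 628 shared bp. Genes that act on or read H3K27 acetylation or methylation had a median of 4207 bp. The demethylase gene Kdm6b had 17709, 19253 and 13585 bp (13585 bp shared), of which 10725 bp lay in its body, while Ep300 had 4207 bp and Crebbp 2972 bp.

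Histone genes, most of them replication-dependent and expressed in dividing cells, had a median of 11514 bp over 67 members, with 48 in the top decile. Most of these genes are short and clustered, so many share the same bases. In its locus H2ac8 had 26316, 25789 and 24590 bp, of which 558 shared bp, its whole body, lay in the gene. Another 9 genes reached into that locus. Near-identical copies make the placing of reads in such clusters uncertain.

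The Hox genes, which pattern the trunk and hindbrain and are a textbook target of Polycomb repression in the forebrain, were at the opposite end. None of the 39 had a shared base, and 32 had no base in any list, against 74.8% and 21.0% of all genes. The other 7 were Hoxb1, with 497 bp in replicate 1 alone, and Hoxa3, Hoxa5, Hoxa6, Hoxa7, Hoxa9 and Hoxa10, whose loci held the same 295 bp of replicate 2 alone. No Hox promoter window had a base in any list, while 39.6% of all promoter windows had none. At least 20 CG were held by 11 of the 24 Hox windows.

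Receptor families of sensory neurons were nearly empty. Of 1110 olfactory receptor genes 1034 had no base in any list and 45 had a shared base, and of 353 vomeronasal receptor genes 337 and 15. Over all genes the shares were 21.0% and 74.8%. A shared base inside the gene body was found in 1 olfactory and 3 vomeronasal receptor genes, against 64.0% of all genes. The longest lengths were at Olfr1359 (10321, 11319 and 10034 bp) and Olfr750 (8261, 8516 and 7971 bp).

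These families made up 1371 of the 4601 loci with no base, against 1463 of all 21887 genes. Another 922 were Gm-numbered gene models, against 1327 of all genes. The 4601 genes had a median body of 4036 bp, against 17169 bp for all genes. Bodies of at least 100 kb were found in 51 of them, against 2429 of all 21887 genes. The longest empty bodies were Iqcm (chromosome 8, 75448687 to 75984508), Skint5 and Skint6, of a skin immune gene family, Zfp993, Cnbd1, 3830403N18Rik, Gm4724, Gm21154, Gm40862 and Gm7592. Several belong to families of near-identical copies, in which no acetylation cannot be told apart from reads that could not be placed.

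Loci with bases in some list and none shared were ranked by the bases held in exactly 1 list. The first 10 were Gm46650, Ntf3, Togaram2, Col1a2, Crabp1, Ankrd2, Gpr6, Loxl4, Timp4 and Ccdc178. The neurotrophin gene Ntf3 had 811, 3853 and 0 bp, the collagen gene Col1a2 1102, 3347 and 0 bp, and the metalloproteinase inhibitor gene Timp4 0, 2146 and 0 bp. Replicate 2, the longest list, was the highest at each of these 3 genes, and replicate 3 was at 0. That did not hold for all of the first 10. Ccdc178 had 2414 bp in replicate 1 and 2046 bp in replicate 2, and replicate 3 had 253 bp at Togaram2 and 620 bp at Ankrd2.

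Across chromosomes, shared bases took up 1.61% (chromosome 14) to 2.79% (chromosome 11) of the autosomes, measured up to the last gene, and 0.675% of chromosome X. Per protein-coding gene, chromosomes 18 and 12 had the most, with 3.72 and 3.52 kb, and chromosomes X and 7 the least, with 1.19 and 1.48 kb. Chromosome Y had no shared base. Sex is not given in the sources used here.

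Sequence at gene starts differed with the mark. Of 21263 promoter windows of 300 bases, 9714 (45.7%) lay wholly in shared bases and 8426 (39.6%) had no base in any list. Windows in shared bases held a median of 24 CG dinucleotides and 63.0% GC, and windows in no list 3 CG and 47.7% GC. The share of windows in shared bases was 2.92% at 0 to 4 CG, 18.5% at 5 to 9, 58.9% at 10 to 19, 79.0% at 20 to 29 and 88.4% at 30 or more. It rose at each step.

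**Figure D5:**
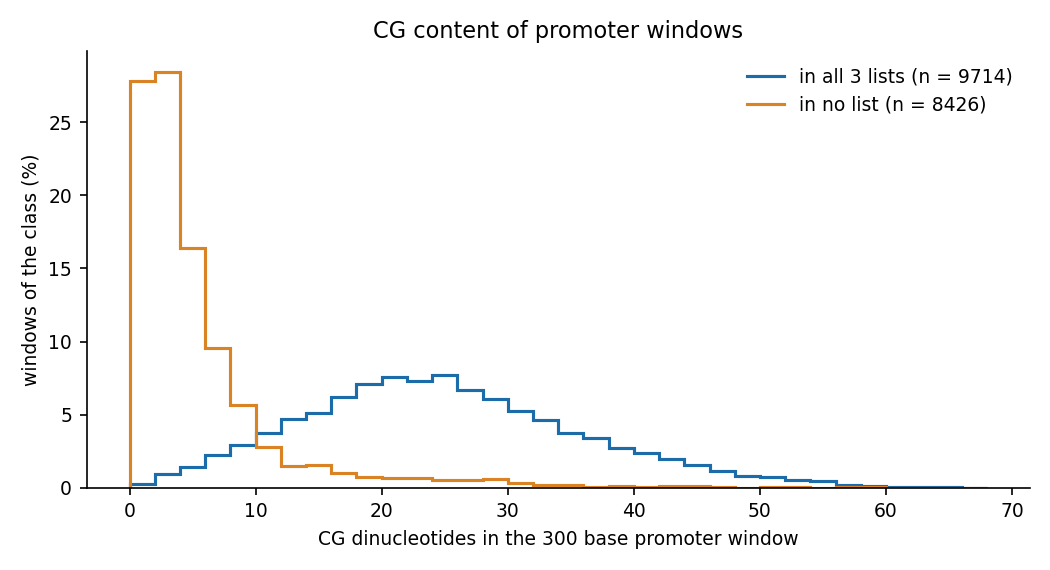
Distribution of the number of CG dinucleotides in promoter windows of 300 bases, as a percentage of the windows of each class, for windows in all 3 lists (9714) and in no list (8426). Windows in no list gather below 10 CG, and windows in all 3 lists spread around a median of 24.

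Motifs were searched on both strands, and a match is only a match of letters. GGGCGG, the GC box, was in 70.4% of windows in shared bases, 14.6% of windows in no list and 46.2% of all windows. It contains a CG, so its share moves with the CG count. TATAAA was in 5.24%, 22.2% and 12.6%, and CAGCTG, an E-box, in 14.0%, 16.7% and 15.6%. CCAAT was about even, at 38.7%, 39.1% and 38.2%.

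Some starts departed from the CG pattern. At least 20 CG and no base in any list was found in 370 windows of 343 genes. Besides the 11 Hox windows they included the starts of Phf10 (62 CG), of the Wnt ligand gene Wnt9a (58 CG) and of the ephrin receptor gene Epha8 (56 CG), though the Phf10 locus as a whole had 2406, 1910 and 1532 bp. Under 5 CG and wholly in shared bases was found in 176 windows of 160 genes, led by shared length by Nfia and Nfix (2 CG each). The zinc-finger repressor gene Zbtb18, with 24116, 24361 and 24093 bp in its locus, had 4 such windows and another with 51 CG. At Nr2f1 the second annotated start had 4 CG, and its block covered both starts.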

How the data were processed

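Native H3K27ac ChIP-seq of 3 WT E15.5 cortex lysates was analysed. The build is mm10, and the tools named in the submitters' processing notes are MACS2 2.1.1, Bowtie2 2.2.8, cutadapt and FastQC. How each was set, whether input served as control and what was pooled is not given in the sources used here. From the authors' peak caller, the deposited broad peak lists hold an unused display score, each peak's fold enrichment ratio and its -log10 p and -log10 q, compared only within a list. The lowest deposited -log10 q was 1.32 to 1.33. The 6 input libraries and the 3 other peak lists were not analysed here.

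Intervals were intersected and summed with Python 3.11.15, numpy 2.4.6 and pandas 2.3.3, in functions tested on simulated data, and drawn with matplotlib 3.10.9. Peaks off the main chromosomes (8 to 11 per list) were left out. Covered length reflects how many peaks were called and how wide they are, not how high. Genes are 21887 protein-coding genes of RefSeq GRCm38.p6, whose table gives no exons, so positions are inside or outside a gene. Annotated starts come from the RefSeq promoter table, which covers 17492 of them with 21263 windows. Of 333 listed gene names in 25 lists, 1 did not match.

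The members and lists were chosen with earlier results of these data known, so no test was made. Named were the 20 loci with the longest shared length, the 15 with the highest share, the 10 longest empty bodies, the 10 loci with most bases in exactly 1 list and none shared, Prdm16, and the 4 longest and 2 shortest members of each list (of tied or overlapping ones, some). Further genes, widest stretches and starts were picked with their values in view, and some genes that the rule names are not reported here. The alternatives tried were lists of equal length, only peaks whose -log10 q was 5 or more, each replicate left out, bases in at least 2 lists, other windows, at least 1000 shared bp, the share of the locus, and, added after seeing the data, stretches of at least 200 bp.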

Additional observations from a re-analysis of the deposited data

How the results depend on the processing

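Shared bases came to 40.1 Mb among peaks with -log10 q of at least 5, 49.0 Mb in lists of equal length, 50.5 Mb in stretches of at least 200 bp (chosen after seeing the data), 74.5 Mb where 2 of the 3 lists sufficed, and 51.7 to 72.4 Mb with one replicate left out, the highest without replicate 3. The mean Jaccard index, 0.624 over the 3 pairs, was 0.565 to 0.703 with one replicate left out, each then a single pair. It was 0.680 in lists of equal length and 0.679 among peaks with -log10 q of at least 5. The count of loci with no base in any list was 2823 with 100 kb on each side of the gene and 7421 within 2 kb of the gene ends, as the windows widen or narrow. Of the 20 longest loci, 13 stayed among the first 20 with 100 kb on each side, 14 among peaks with -log10 q of at least 5, 1 when ranked by share of the locus and 0 within 2 kb of the gene ends. With a replicate left out 19 or 20 stayed. Hox genes had no shared base in any alternative except with 100 kb on each side, where 22 of 39 did. The cortical patterning median was 4847 to 35865.5 bp and the hepatocyte median 0 to 3166 bp over the 9 alternatives. The list medians that moved by over 1.5 times without replicate 3 stand beside their lists in the report. No paired analysis was possible because 1 group was described and no test was made. With no read counts, peaks too weak to be called in the shortest list cannot be told apart from absent ones.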

Other observations

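Other hairpins with long shared lengths within 20 kb lay inside genes and outside them. Mir7655, inside Mllt10, had 24280, 25901 and 23453 bp, and Mir1897, in the block of Sox2, had 23093, 23205 and 22858 bp. Mir6352, inside the ephrin receptor gene Epha4, had 27162, 27402 and 21166 bp. Mir125b-1, outside protein-coding genes, had 23754, 22379 and 17972 bp. In all, 124 of 1005 hairpins lay wholly in shared bases. On chromosome Y, replicate 2 had 9 peaks and the other lists none.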
